A study of Mus musculus with 3 samples.

Results

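The genes examined here are 36 of the 31053 genes counted in a single-cell RNA study of mouse dorsal root ganglia (DRG), and they are transcribed or used when a cell copies its DNA and divides. They were taken by name: a row of each count matrix was kept when its gene symbol was one of the 36. By role they fall into 11 S phase members, whose products copy DNA or supply its building blocks, 23 mitotic members, whose products build the spindle and separate the chromosomes, and 2 members, Stmn1 and Hmgb2, which many cells that do not divide also use. The question was which cell classes of the ganglion divide on day 7 and day 14 after nerve injury. Each of 3 droplet libraries (10x Genomics 3' chemistry, version 3) pooled the L3 and L4 ganglia of both sides of 2 male, wild type C57BL/6J mice, 8 ganglia in all, at 13 weeks of age per the labels. The naïve mice were untreated, and the others received a spared nerve injury (SNI) of both hind legs 7 or 14 days earlier. All mice were perfused before dissection, and their ganglia were dissociated with collagenase and dispase. The study's text gives another sex and age for its mice and names the injury both as spared nerve injury and as a partial ligation, and the labels are followed here.

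With 1 library per condition there was no replicate, and condition, animals and library cannot be told apart. Every difference between conditions below therefore compares libraries and has no test, and its intervals cover counting error only. The filter on cells, at least 500 genes and at most 20% mitochondrial counts, kept 3152 naïve, 2682 day 7 and 3828 day 14 cells of 11937 barcodes, with 3072, 4010 and 4199 unique molecular identifiers (UMIs, each standing for an RNA molecule) per median cell. All 36 members were counted in each library, with 21098, 21124 and 34456 UMIs in all. The cells formed 27 clusters, which were gathered into 13 classes named from fixed marker genes with the suffix "-like". Neuron, satellite glial cell (SGC) and Schwann cell markers were all present. Of the barcode sequences 9 occurred in more than 1 library, and none of them belonged to the dividing cells described below.

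In a dividing cell, E2F factors first switch on genes for DNA copying, such as the Mcm helicase subunits and the sliding clamp Pcna. Mki67, Top2a, Cdk1, the B-type cyclins and their partners follow toward mitosis, and the destruction of the cyclins by the anaphase-promoting complex, with Cdc20 and Ube2c, ends it. Adult sensory neurons have left the cycle for good, whereas glia and immune cells may enter it again. Most members are absent from resting cells, so a cell that divides stands out by many members at the same time rather than by any single gene.

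The upstream sequences of some of these genes carry elements through which the periods of the cycle are thought to be set. Of the members shown, all but Ccnb1 were among the 10 with most UMIs in the SGC-like or the macrophage-like cells. The sequences are those of 3 mitotic and 2 S phase members, because the 2 groups of members differed in these cells. Each is the 120 bases before the start given for the gene in RefSeq's promoter table (GRCm38.p6, the assembly also named mm10), of which the last 10 in front of Top2a lie inside the annotated gene span, 5′ to 3′ on the gene's own strand, and capitals mark the motifs searched on both strands: TTTGAA or TTTAAA (the cell cycle homology region, CHR), CCAAT (bound by NF-Y), and TTTCGCGC or TTTGGCGC (E2F sites), which may overlap each other.
Top2a, chr11:99024190-99024309, strand minus: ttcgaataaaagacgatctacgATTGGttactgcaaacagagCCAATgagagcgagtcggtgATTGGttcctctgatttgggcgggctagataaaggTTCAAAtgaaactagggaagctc
Ccnb1, chr13:100786487-100786606, strand minus: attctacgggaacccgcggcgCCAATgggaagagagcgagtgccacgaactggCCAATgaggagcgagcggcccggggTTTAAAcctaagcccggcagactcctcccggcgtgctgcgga
Ube2c, chr2:164769809-164769928, strand plus: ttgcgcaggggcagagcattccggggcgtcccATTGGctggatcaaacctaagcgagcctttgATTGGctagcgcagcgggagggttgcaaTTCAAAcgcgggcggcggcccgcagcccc
Mcm6, chr1:128359706-128359825, strand minus: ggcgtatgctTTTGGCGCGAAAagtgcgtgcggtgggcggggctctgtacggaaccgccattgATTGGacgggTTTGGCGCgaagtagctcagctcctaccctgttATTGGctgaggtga
Pcna, chr2:132253181-132253300, strand minus: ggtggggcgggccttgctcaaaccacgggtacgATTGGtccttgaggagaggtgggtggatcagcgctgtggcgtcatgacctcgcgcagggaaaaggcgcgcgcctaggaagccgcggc
Windows were found for 31 of the 36 members, and 5 (Ccna2, Ccne2, Aurkb, Tpx2 and Stmn1) had none. In the 150 bases before the start, a CHR lay in front of 10 of 20 mitotic members and 3 of 10 S phase members, compared with 16.8% of 27025 genes. A CCAAT lay in front of 18 of the 20 mitotic members and 6 of the 10 S phase members, against 27.7% of all genes. A CHR together with at least 2 CCAAT, as in front of Top2a, Ccnb1 and Ube2c, was found for 6 of the 20 mitotic members, for none of the 10 S phase members and for 0.962% of all genes. All mitotic examples shown belong to these 6, so they do not stand for the mitotic members in general. An E2F motif was found for 1 of the 20 mitotic members, for 2 of the 10 S phase members, Mcm5 and Mcm6, and for 0.488% of all genes. Mcm6 thus does not stand for the S phase members in general, and Pcna, the other S phase example, had neither an E2F motif nor a CHR. A match is a string of letters and was not tested as a binding site.

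Before dividing cells could be counted, the level of the members in each class was taken apart. Stmn1, which binds free tubulin and is abundant in neurons, made up 91.8% of all member UMIs in neuron-like cells and 90.8% in myelinating Schwann-like cells. In SGC-like cells it made up 62.3%. Its summed level was 1083, 1044 and 1226 counts per 1000000 UMIs of the class (CPM) in naïve, day 7 and day 14 neuron-like cells, and 1507, 1266 and 1375 CPM in myelinating Schwann-like cells. The 2 classes with the highest Stmn1 levels thus had low levels of the other members: the 34 members without Stmn1 and Hmgb2 summed to between 91.1 and 95.2 CPM in neuron-like cells and between 105.5 and 121.9 CPM in myelinating Schwann-like cells. Hmgb2, a chromatin protein, was the leading member in macrophage-like (21.7% of member UMIs), dendritic-like (20.9%), T or NK-like (34.4%), B-like (22.1%) and neutrophil-like cells (29.6%). Pcna, which also serves DNA repair, came second in both of these glial classes with 976 UMIs in SGC-like and 882 in myelinating Schwann-like cells. Its level in SGC-like cells was 56.4, 59.1 and 58.6 CPM in the 3 libraries, with overlapping intervals.

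**Figure D1:**
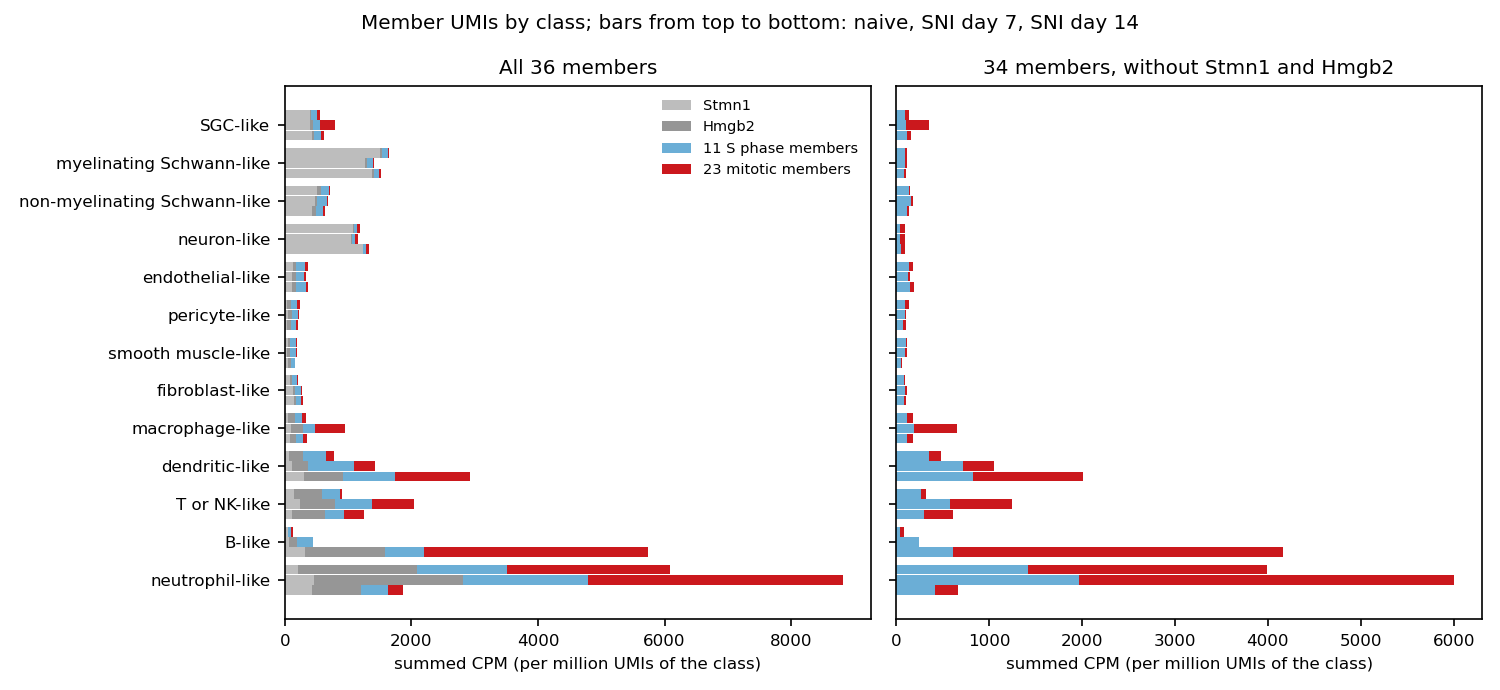
Summed CPM of the members (horizontal axis) in each of the 13 classes, with 1 bar per library in the order naïve, day 7, day 14; the left panel holds all 36 members and the right panel leaves out Stmn1 and Hmgb2. Stmn1 fills most of the bars of neuron-like and Schwann-like cells, and mitotic members reach 249.7 CPM in day 7 SGC-like and 468.5 CPM in day 7 macrophage-like cells, with higher sums in some libraries of the small immune classes.

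The share of cells in which at least 3 of the 36 members were detected followed the depth of the cells and these broadly used members. In SGC-like cells, the glia that wrap neuronal cell bodies, it was 12.3% of 896 naïve cells (95% Clopper-Pearson interval 10.2 to 14.6), 24.2% of 562 day 7 cells (20.7 to 28.0) and 24.3% of 847 day 14 cells (21.5 to 27.4). Median depth was 4774, 6748 and 6391 UMIs in the same order. Most of these cells passed through Stmn1 or Hmgb2, since 88 of 110, 102 of 136 and 150 of 206 of them had fewer than 3 of the other 34 members. In macrophage-like cells the share was 4.41% of 68 (0.919 to 12.4), 16.6% of 211 (11.8 to 22.3) and 14.3% of 251 (10.3 to 19.3), at median depths of 2097, 4305 and 3600 UMIs. The neuron-like cells, which do not divide, had high shares: 74.8% of 131 naïve cells, 25.7% of 230 day 7 cells and 76.5% of 149 day 14 cells. Their median depths were 55695, 1975 and 77625 UMIs, and 173 of the 230 day 7 neuron-like cells had under 10000 UMIs, against 24 and 30 in the naïve and day 14 libraries. Among neuron-like cells above that depth the share was 91.6%, 87.7% and 95%.

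Reduced to 2000 UMIs per cell by the exact expectation of random thinning, with shallower cells left out, the picture changed. Neuron-like cells then had 3 members in 1.5%, 2.44% and 1.66% of cells from naïve, day 7 and day 14, most of it through Stmn1, since without Stmn1 and Hmgb2 the shares were 0.0973%, 0.205% and 0.176%. SGC-like cells had 1.56% of 813, 2.84% of 548 and 2.79% of 817, and 0.413%, 1.20% and 0.706% without these 2 members. The first set of values lay near that of neuron-like cells and the second above it. Macrophage-like cells had 1.73% of 37, 5.18% of 173 and 1.64% of 200. At this depth only their day 7 value lay above all 3 neuron-like values. The naïve value lay slightly above that of naïve neuron-like cells (1.5%) and the day 14 value near that of day 14 neuron-like cells (1.66%). At 4000 UMIs the 3 macrophage-like values were 20% of 9, 14.6% of 113 and 10.5% of 106 cells, all above those of neuron-like cells (5.69%, 9.62% and 6.23%), with the naïve value the highest. Day 7 non-myelinating Schwann-like cells had 5.19% of 53, none of them mitotic-rich as defined below. Higher values in every library were found in dendritic-like (8.61%, 16.9% and 24.5%) and T or NK-like cells (8.64%, 19.7% and 19.5%) and in the neutrophil-like cluster (27.3%, 36.7% and 9.25%), from 7 to 39 cells each. At most 0.818% of pericyte-like cells in any library had 3 members at this depth.

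**Figure D2:**
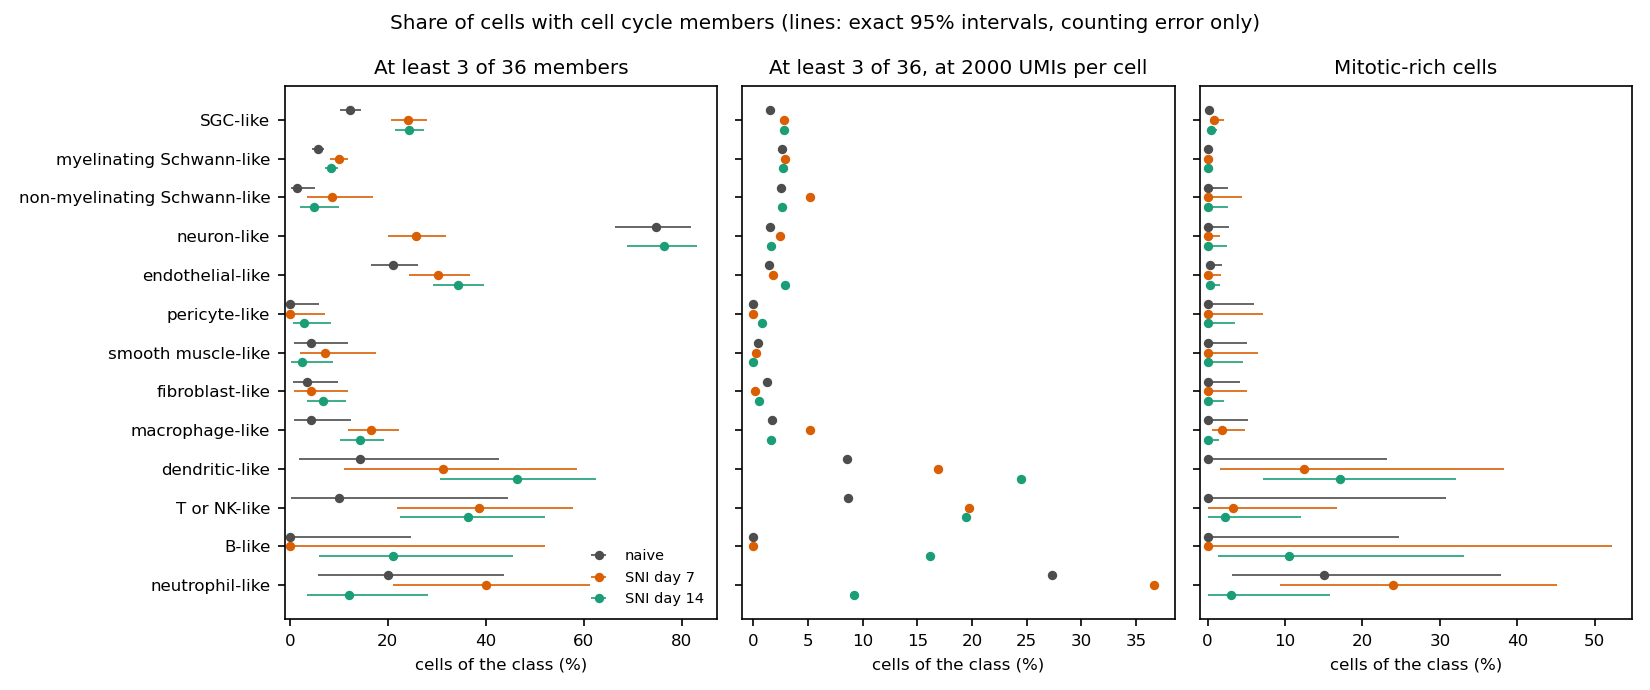
Percent of cells (horizontal axes) in each class and library with at least 3 of 36 members at their own depth, with at least 3 members at 2000 UMIs per cell, and that were mitotic-rich as defined in the text; points are libraries and lines exact 95% intervals, which the thinned values lack. Neuron-like cells have 74.8%, 25.7% and 76.5% in the first panel and lie between 1.5% and 2.44% in the second.

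Cells with many mitotic members were then counted. A cell was called mitotic-rich when at least 5 of the 23 mitotic members were detected and the 34 members without Stmn1 and Hmgb2 reached 1000 CPM in it, a rule chosen after the values had been seen. There were 40 such cells of 9662: 6 naïve (0.190%, interval 0.0699 to 0.414), 18 on day 7 (0.671%, 0.398 to 1.06) and 16 on day 14 (0.418%, 0.239 to 0.678). Outside the neuron-like class all 40 cells with at least 5 mitotic members also passed the CPM limit, the lowest of them with 1868 CPM. Near the limits, 2 cells outside this class had at least 1000 CPM with 3 or 4 mitotic members, and 10 had between 500 and 2000 CPM with at least 3. In the neuron-like class 32 cells had at least 5 mitotic members, at a median of 157026 UMIs per cell, and none passed, the highest with 656.2 CPM. That neuron-like cell, from day 14, had 15 mitotic members, 10 Top2a UMIs and all 6 neuron markers among 80765 UMIs, with 5 of 6 SGC markers also present. The doublet caller Scrublet marked none of the 40 cells, although it marked only 0.931% of all cells.

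**Figure D3:**
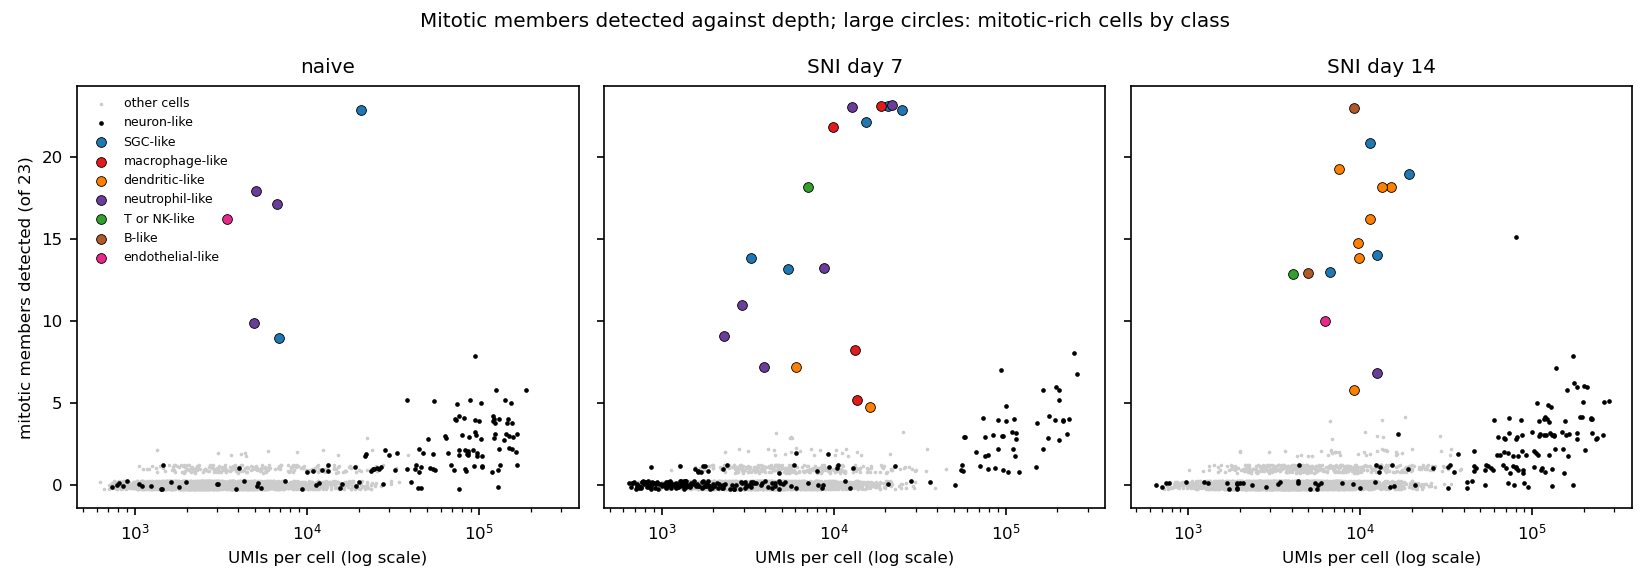
Number of mitotic members detected (vertical axis, of 23, points spread slightly to separate them) against UMIs per cell (horizontal log axis) in the 3 libraries; grey points are cells, black points neuron-like cells and large circles the mitotic-rich cells coloured by class. Neuron-like cells gain members with depth, whereas the 6 naïve, 18 day 7 and 16 day 14 mitotic-rich cells lie above other cells of the same depth.

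The 40 cells held 57.2% of all mitotic UMIs of the data, or 35.6%, 75.2% and 43.7% of those in the respective libraries. They held 89.4% of the UMIs of Top2a, the enzyme that untangles DNA, 78.4% of those of the proliferation antigen Mki67, 92.1% of Hmmr, which binds the spindle, and 87.0% of Ube2c. By contrast they held 5.16% of Pcna and 0.906% of Stmn1 UMIs. Mki67 was detected in 39 and Top2a in 38 of the 40, compared with 0.406% and 0.417% of the remaining cells outside the neuron-like class. Since Mki67 and Top2a took part in the choice of the cells, these values describe them and support nothing. By class, 27 of the 40 lay in macrophage-like, dendritic-like, T or NK-like, B-like or neutrophil-like clusters, 11 were SGC-like and 2 endothelial-like.

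SGC-like cells held 2 mitotic-rich cells in the naïve library (0.223%, 0.0270 to 0.804), 5 on day 7 (0.890%, 0.289 to 2.06) and 4 on day 14 (0.472%, 0.129 to 1.20). The intervals of the 3 libraries overlap. The class of these cells depended on the clustering: with cell cycle genes kept for it, 1 of the 11 was SGC-like and 10 joined the neutrophil-like cluster. The cells had between 9 and 23 mitotic members and between 20 and 500 UMIs of the 34 members, with 3 to 6 of the 6 SGC markers. By their own markers 10 of the 11 were also SGC-like. Fabp7, the lipid-binding protein that marks SGCs, was present in all 11, at 10977 CPM against 7262 in the remaining SGC-like cells, and the potassium channel gene Kcnj10 in 10 of them. The 6 macrophage markers summed to 3 UMIs in the 11 cells, 20.4 CPM against 23.7 CPM in the remaining SGC-like cells, with C1qb, Cd68, Adgre1 and Fcgr1 at 0. Median depth was 12598 against 5752 UMIs. Of the 5 SGC-like clusters, the cluster led by Hes5, Aqp4 and Fabp7 held 7 of the 11: 1 of 194 naïve, 4 of 141 day 7 and 2 of 156 day 14 cells. The interferon-response cluster led by Cxcl10 and Isg15 held none of 153 naïve, 33 day 7 and 25 day 14 cells, which allows up to 1.96%, 9.09% and 12.0%. The largest cluster, led by Egr3 and Ednrb, held none either, which allows up to 0.955%, 1.42% and 0.867%. Its median depths were 4052, 5238 and 5260 UMIs, against 8697, 11252 and 10830 UMIs in the cluster led by Hes5. Whether depth accounts for this difference between clusters was not tested.

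The summed level of the mitotic members in SGC-like cells was 52.0, 249.7 and 50 CPM for naïve, day 7 and day 14. The day 7 to naïve ratio was 4.80 (exact 95% interval 4.22 to 5.48) and the day 14 to naïve ratio 0.963 (0.820 to 1.13). This day 7 level rested on a handful of cells, since the 3 cells with most mitotic UMIs held 86.9% of the class's mitotic UMIs, and the interval does not cover how many such cells a library happens to catch. Without the mitotic-rich cells the level was 13.63, 17.21 and 21.52 CPM, and the log2 ratio of all 36 members on day 7 went from 0.52 to -0.01. The S phase members were at 90.8, 108.0 and 112.0 CPM. Top2a was counted 43, 171 and 30 times, in 2, 5 and 11 cells. Cenpf, a kinetochore protein, was counted 25, 153 and 27 times in 2, 8 and 8 cells, and Prc1, which bundles the spindle midzone, 36, 115 and 28 times in 11, 13 and 16 cells. Mki67 was counted 10, 41 and 19 times in 5, 4 and 9 cells. Day 7 had the most UMIs of all 4 genes, while the share of cells with a UMI was highest on day 7 for Cenpf (0.223%, 1.42% and 0.945%) and Prc1 (1.23%, 2.31% and 1.89%) and on day 14 for Mki67 and Top2a. Mcm6, a helicase subunit, had 52, 59 and 111 UMIs and was detected in 49, 50 and 93 cells.

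Counted gene by gene, 29 of the 36 members had at least 20 UMIs in the day 7 and naïve SGC-like cells together. Of these 29, 20 were at least 2-fold higher on day 7, against 1.42% of 11601 genes. These were 19 mitotic members and Hmgb2, with a median log2 ratio of 2.34 over the 19 mitotic members that had enough UMIs, all of which were among the 20. Of the mitotic members, 19 had enough UMIs in this pair and 12 in the day 14 pair, so some passed only through day 7, where they were high. A few cells also held most of the day 7 mitotic UMIs, so the count describes the members and supports nothing. None of the 29 was at least 2-fold lower (0.905% of genes), and none of the 8 S phase members with enough UMIs reached 2-fold in either direction. On day 14 none of the 22 members with enough UMIs was 2-fold higher (3.00% of genes). Of these 22, 2, Ccnb1 and Ube2c, were 2-fold lower (1.07%), with 17 and 7 UMIs for Ccnb1, the B-type cyclin, in naïve and day 14 cells. The share of SGC-like cells with Mki67 was 0.558%, 0.712% and 1.06%, beside 0.521%, 0.532% and 0.186% in myelinating Schwann-like cells at median depths of 2477, 3583 and 3564 UMIs.

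Macrophage-like cells had mitotic-rich cells on day 7 only: 4 of 211 (1.90%, 0.519 to 4.78), against 0 of 68 naïve cells, which allows up to 4.41%, and 0 of 251 day 14 cells, which allows up to 1.20%. The naïve sample of this class is thus too small to show whether such cells were absent before injury. All 4 had 5 or 6 of the 6 macrophage markers, and these markers summed to 11040 CPM against 13303 CPM in the remaining cells. Csf1r, the receptor for the macrophage growth factor, was present in each. The 6 resident-type genes summed to 2459 against 3961 CPM, with Mrc1 in 3 of the 4 cells, Cbr2 in 2, Cd163 and F13a1 in 1 each, and Lyve1 and Folr2 in none. Of the monocyte-type genes Ccr2, a chemokine receptor of recruited monocytes, in 2, while Ly6c2 had no UMI in any macrophage-like cell. Mitotic members summed to 67.6, 468.5 and 66.0 CPM for naïve, day 7 and day 14, a day 7 ratio of 6.93 (3.84 to 14.0). The 4 cells held 85.7% of the day 7 mitotic UMIs, and without them the 3 values were 67.59, 70.72 and 66.05 CPM. Mki67 had 0, 34 and 2 UMIs, Top2a 0, 47 and 5, and Ube2c 0, 50 and 0, where a naïve count of 0 allows up to 18.4 CPM. Cenpa, the centromeric histone, had 3, 58 and 32 UMIs in 3, 25 and 29 cells and so was spread over more cells than the others. Of the 36 members, 13 had 20 UMIs in the day 7 pair and 8 of these were at least 2-fold higher on day 7 (9.85% of genes, with none 2-fold lower against 4.37%), namely Top2a, Cdk1, Ccnb2, Cenpa, Ube2c, Mcm3, Mcm6 and Stmn1. The naïve cells had 55 member UMIs in all against 947 on day 7, and Top2a and Ube2c reached 20 UMIs through day 7 alone. This count thus describes the members and supports nothing. In the day 14 pair 5 members had 20 UMIs, of which Mcm3 alone was higher (11% of genes) and none was lower (4.87%). The day 14 sum depended on how cells were classed: the log2 ratio of all members over naïve was 0.06, but 1.08 with coarser clusters and 0.82 when each cell was classed by its own markers. Which cells made this difference was not tested.

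Dendritic-like cells, the antigen-presenting cells, were few, and 9 of their 71 cells were mitotic-rich. There were 0 of 14 naïve cells (which allows up to 21.4%), 2 of 16 on day 7 (12.5%, 1.55 to 38.3) and 7 of 41 on day 14 (17.1%, 7.15 to 32.1). The level of the 34 members was 482.1, 1048 and 2016 CPM and that of the S phase members 353.5, 723.6 and 829.3 CPM. Of the 9 cells 4 had at least as many S phase as mitotic UMIs, compared with 1 of the 11 SGC-like cells. Top2a had 3, 20 and 88 UMIs, Mki67 0, 3 and 27, and Pclaf, the PCNA-associated factor, 2, 14 and 53. The identity of these 9 cells was less clear, since their dendritic markers ranged from 0 to 4 of 6 and only 3 were dendritic-like by their own markers, with 3 macrophage-like and 3 unnamed. Flt3, the receptor for the dendritic cell growth factor, was detected in 7 of the 9.

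Lymphocytes added 4 more cells. T or NK-like cells had 0 of 10, 1 of 31 and 1 of 44 mitotic-rich cells, and B-like cells 0 of 13, 0 of 5 and 2 of 19. The 2 B-like cells raised the class's mitotic sum to 3552 CPM on day 14, from 1 UMI in the naïve and none in the day 7 cells. Both had Mki67 and Top2a, with 13 and 23 mitotic members.

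The neutrophil-like cluster held 3 mitotic-rich of 20 naïve, 6 of 25 day 7 and 1 of 33 day 14 cells, but most of these were not neutrophils by their markers. Of the 10 cells 7 carried all 5 erythroid markers (the globin genes Hba-a1, Hba-a2, Hbb-bs and Hbb-bt, and the heme enzyme gene Alas2), which made up between 1.28% and 50.4% of their UMIs, and these 7 were erythroid-like by their own markers. The granule genes S100a8 and S100a9 were found in 5 and 6 of the 10, while Retnlg, Mmp9 and Cxcr2, genes of mature neutrophils, were at 0. A pair of erythroid-marked cells on day 7 held 40 and 28 Mki67 UMIs and all 23 mitotic members. Since 2 of the 3 naïve cells were of this kind, cells with an erythroid signature and mitotic members were present without injury. Whether they came from blood, marrow or the ganglion was not tested, although all mice were perfused.

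The remaining classes, apart from endothelial-like cells, held no cell that passed the rule. The limits given here concern cells that would pass it and not dividing cells of lower depth or in S phase, since the rule needs 5 mitotic members and cells outside the neuron-like class that had them had a median of 9510 UMIs. None was found among 4082 myelinating Schwann-like cells, where a count of 0 allows up to 0.223% of naïve, 0.266% of day 7 and 0.186% of day 14 cells. None was found in non-myelinating Schwann-like cells (up to 2.21%, 3.70% and 2.14%), and pericyte-like, smooth muscle-like and fibroblast-like cells had none either. In the myelinating Schwann-like cells Cdk1, the kinase that drives mitosis, was not counted in any library, and Top2a had 2, 0 and 3 UMIs. Of the 36 members, 10 had at least 20 UMIs in the day 7 pair and 12 in the day 14 pair. Among these, Mcm3 was at least 2-fold higher on day 7 (1.18% of genes) and Mcm2 on day 14 (2.04%), and none was 2-fold lower (0.933% and 1.01% of genes). In neuron-like cells 18 members had enough UMIs in the day 7 pair and 21 in the day 14 pair. Among these, Aurka and Prc1 were 2-fold higher in both injury libraries (4.42% of genes on day 7 and 6.87% on day 14). Prc1 was detected in 20 of 131, 32 of 230 and 39 of 149 neuron-like cells, at 2.94, 10.6 and 7.33 CPM. Kif23, a midzone motor that was the third most counted member there, was 2-fold lower in both (1.82% and 1.46% of genes), at 19.2, 9.06 and 8.44 CPM. Endothelial-like cells had 1 mitotic-rich cell each in the naïve (1 of 304) and day 14 (1 of 335) libraries and 0 of 218 on day 7. Their mitotic sum was 45.2, 28.3 and 43.3 CPM. Of the 10 members with enough UMIs in each pair, Kif23 was the only one to reach 2-fold, lower on day 7 (1.5% of genes). None was 2-fold higher on day 7 (1.95% of genes), and none was higher or lower on day 14 (2.58% and 1.73%).

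Cell cycle genes that were not used to choose the cells were compared as well. Of 44 other S phase and G2/M genes, 43 were at least 2-fold higher in the 11 mitotic-rich SGC-like cells than in the remaining SGC-like cells, where 14.2% of 12338 genes were. The 2 shares are not strictly alike. The percentages of all genes in this paragraph cover genes with at least 20 UMIs, whereas the 44 include genes with few. Cdc6, for example, had 1 UMI in the 11 cells and 1 in the others. The kinetochore gene Nuf2 had 29 UMIs in 6 of the 11 cells and 4 UMIs in 2294 other cells, and the spindle gene Ckap2 had 83 UMIs in 9 cells against 6. In macrophage-like cells 39 of the 44 were higher (12.9% of genes) and in dendritic-like cells 42 (9.24%). Among genes outside all lists that were found in at least 20% of the mitotic-rich cells, those with the highest ratios in the SGC-like cells were Pbk, Aspm, Spc25, Pimreg and Lockd, and Aspm, a spindle pole gene, was also among the first 10 in the macrophage-like and dendritic-like cells. The same was done for the 452 SGC-like cells with at least 3 members, which include the 11. Among genes outside the lists found in at least 20% of them and higher in every library, the first 10, led by Galnt10 and Cox6b2, had ratios between 1.38 and 1.51, at median depths of 10132 against 5218 UMIs, and 26 of the 44 cell cycle genes were 2-fold higher, against 1.35% of all genes.

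Regulators of entry and exit differed mainly between classes. Cdkn1a (p21), which blocks cyclin-dependent kinases, was at 1521, 1378 and 1331 CPM in naïve, day 7 and day 14 myelinating Schwann-like cells, and Cdkn1b (p27) at 677.7, 781.8 and 765.9 CPM. In SGC-like cells the 2 inhibitors were at 150.8, 119.3 and 121.4 CPM and at 102.7, 101.5 and 118.2 CPM. The D-type cyclin gene Ccnd1, whose product opens the way into S phase, was at 419.6, 393.9 and 368.9 CPM in SGC-like cells and at 5.66, 4.95 and 4.74 CPM in myelinating Schwann-like cells. Myelinating Schwann-like cells thus had more Cdkn1a and Cdkn1b than Ccnd1 in every library, and SGC-like cells more Ccnd1 than either. In non-myelinating Schwann-like cells Ccnd1 was at 181.9, 248.9 and 250.6 CPM, Cdkn1a at 101.1, 143.0 and 117.3 CPM and Cdkn1b at 190.0, 174.8 and 183.9 CPM. Neither Schwann-like class held a mitotic-rich cell, and a link between these levels and division was not tested. Neuron-like cells had little Ccnd1 (5.99, 11 and 7.25 CPM), a level of the inhibitor Cdkn2d (100.4, 97.1 and 116.8 CPM) above the other classes shown, and Cdkn1a at 141.7, 242.8 and 228.7 CPM, where the naïve interval lay below those of day 7 (231.0 to 254.9) and day 14 (220.4 to 237.2). In endothelial-like cells Cdkn1a was at 190.5, 121.6 and 73.9 CPM, with separate intervals in all 3 libraries. In macrophage-like cells Ccnd1 was at 534.6, 222.3 and 179.7 CPM and Ccnd2 at 313.4, 112.6 and 142.8 CPM, the naïve values from 68 cells. Ccnd2 was the main D-type cyclin of endothelial-like (529.7, 460.9 and 451.1 CPM) and smooth muscle-like cells (799.6, 833.0 and 909.9 CPM). Counted against naïve on day 7 in SGC-like cells, 1 of the 16 entry regulators was 2-fold higher (1.42% of genes), the mitotic gene activator Foxm1 with 4 naïve and 16 day 7 UMIs, and none of the 7 inhibitors was. Within SGC-like cells, Foxm1 had 18 UMIs in the 11 mitotic-rich cells and 8 in all others. Cdkn2c (p18), an inhibitor of the kinases that pair with D-type cyclins, was at 991.7 CPM in the 11 cells, detected in 10, against 49.9 CPM in the remaining SGC-like cells, while Ccnd1 was at 332.8 against 393.3 CPM and Cdkn1a at 149.4 against 130.6 CPM.

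**Figure D4:**
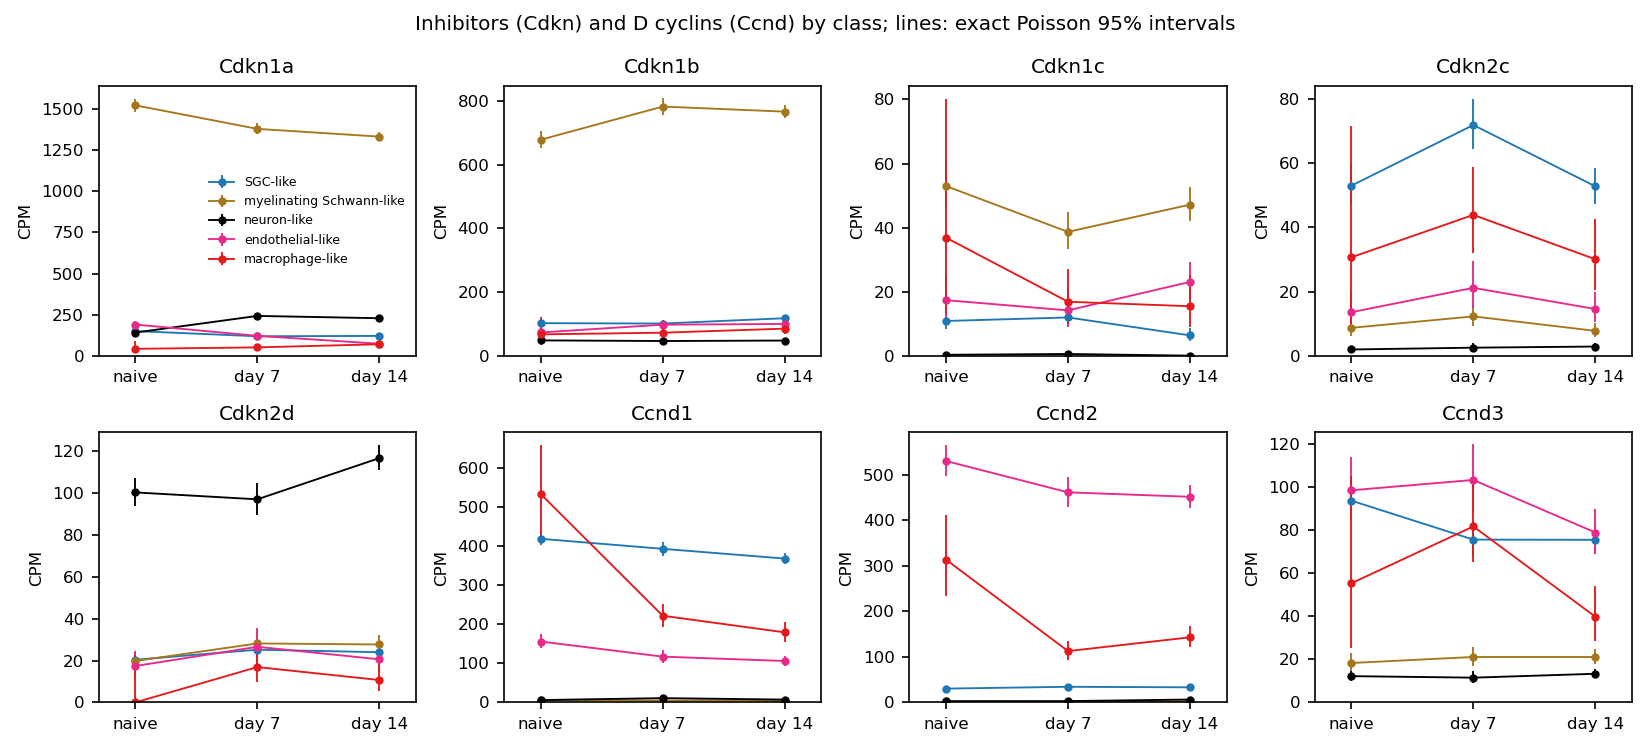
CPM (vertical axes, each starting at 0) of 5 inhibitor and 3 D-type cyclin genes in the naïve, day 7 and day 14 libraries (horizontal axis) for 5 classes; points are libraries and lines exact Poisson 95% intervals. Myelinating Schwann-like cells lie above the other 4 classes for Cdkn1a (1331 to 1521 CPM) and Cdkn1b (677.7 to 781.8 CPM), SGC-like cells lie high for Ccnd1 and Cdkn2c, and neuron-like cells for Cdkn2d.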

How the data were processed

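The authors deposited, for each library, a filtered matrix of raw UMI counts per gene and cell. The submitters' processing notes name Cell Ranger 3.0.2 and the mm10 genome, and other settings are not given in the sources used here. The cell filter asked for 500 detected genes or more and a mitochondrial share of UMIs of 20% or less. Counts were clustered in scanpy 1.11.5 (Python 3.11.15) with leidenalg 0.10.2 at resolution 1, from 2000 variable genes without any listed cell cycle gene, 30 principal components and 15 neighbours. A cluster was named from fixed markers when at least 3 were found in 20% of its cells at 1.5-fold the level of the other cells. Cells that Scrublet called doublets were kept, and an alternative left them out. CPM is the summed count per 1000000 summed UMIs of a class and library.

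With 1 library per condition no test was made. Shares have exact Clopper-Pearson, CPM exact Poisson and ratios exact conditional binomial 95% intervals, which cover counting error only. A count of 0 was limited by 3 counts. A gene was compared when it had 20 UMIs in the pair of libraries and called at 2-fold, with a count of 0 set to 3. This limit of 20 UMIs was not set for the listed cell cycle genes when cells within a class were compared. The genes named are the members, and from the other lists those past 2-fold, plus the first 10 other genes by ratio. Thinned shares are exact expectations. The scripts were tested on simulated data. The members and lists were chosen with earlier results of these data known, and the mitotic-rich rule after the values were seen. Alternatives covered cell filters, clustering, doublets, the class rule, the number of members, thinning and leaving out the mitotic-rich cells. Promoter sequences were taken from RefSeq (GRCm38.p6).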

Additional observations from a re-analysis of the deposited data

Results flagged for a closer look

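The cell filter left out 3 barcodes that met the rule for mitotic-rich cells, of 2275 barcodes outside it, a signal in data the comparisons did not use. In the naïve library there were 2: 1 had 19988 UMIs, 31.7% of them mitochondrial, 20 mitotic members and all 6 SGC markers, and the other had 3103 UMIs, 29.6% mitochondrial, 10 mitotic members and 4 SGC markers. The day 7 barcode had 1068 UMIs, 26.5% mitochondrial, 6 mitotic members and 5 macrophage markers. None was found among the 1080 day 14 barcodes outside the filter.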

How the results depend on the processing

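No paired analysis was possible because the conditions had only a single library each. Leaving out a replicate was not possible for the same reason.

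The order of the shares with at least 3 members was kept in most settings: day 7 and day 14 lay above naïve in 18 of 18 settings in SGC-like cells and in 16 and 14 of 17 in macrophage-like cells. The shares themselves moved with the rule. For naïve, day 7 and day 14 SGC-like cells they were 40.8%, 53.4% and 56.1% with at least 2 members, 0.893%, 3.74% and 3.9% with at least 5, 2.46%, 6.05% and 6.61% without Stmn1 and Hmgb2, 0.223%, 0.890% and 0.708% with at least 3 mitotic members, 0.223%, 0.890% and 0.472% as mitotic-rich cells, 1.56%, 2.84% and 2.79% at 2000 UMIs, 4.92%, 7.41% and 9.16% at 4000 UMIs, and 0.223%, 0.912% and 0.449% with 3 mitotic members at 2000 UMIs. With a stricter cell filter (1000 genes, 10% mitochondrial) the naïve and day 7 shares were 15.3% and 44.0%.

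For macrophage-like cells in the same order they were 16.2%, 35.1% and 30.7% with at least 2 members, 0%, 3.79% and 1.20% with at least 5, 0%, 2.84% and 0.797% with at least 3 mitotic members, 0%, 1.90% and 0% as mitotic-rich cells, and 0%, 1.56% and 0.0155% with 3 mitotic members at 2000 UMIs. Without Stmn1 and Hmgb2 day 7 and day 14 had 8.53% and 3.98%, and at 2000 UMIs 5.18% and 1.64%. At 4000 UMIs the shares were 20% (of 9 cells), 14.6% and 10.5%, so that naïve lay above day 7 and day 14, and the day 14 share under the stricter filter 22.3%.

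The day 7 log2 ratio of summed CPM in SGC-like cells (0.52) turned to -0.01 without the mitotic-rich cells and to -0.01 when cell cycle genes were kept for clustering, where 10 of the 11 mitotic-rich cells joined the neutrophil-like cluster. It was 2.92 with the stricter filter, which left 25 cells, 0.38 with no filter, 1.33 without Stmn1 and Hmgb2 and 0.33 as a mean over cells. On day 14 (0.15) it was 0.40 with the stricter filter and 0.04 with none. In macrophage-like cells the day 7 ratio (1.48) was 0.17 without the mitotic-rich cells and 0.83 as a mean over cells, and the day 14 ratio (0.06) was 1.08 at resolution 0.5 and 0.82 by each cell's own markers. The macrophage-like day 14 ratio was -0.01 with 34 members. Among ratios of the neuron-like, dendritic-like, endothelial-like and myelinating Schwann-like cells whose interval left out 0, 4 values turned: neuron-like day 7 to 0.04 (stricter filter) and 0.00 (34 members), neuron-like day 14 to -0.06 (34 members) and dendritic-like day 14 to -0.14 (own markers). The settings with mitotic-rich cells and with 3 mitotic members at 2000 UMIs were chosen after seeing the data. Where no cause is given, the cause was not tested. Depth limits the detection of all members, and few cells limit the immune classes.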
